A study of Homo sapiens with 12 samples.

Results

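The genes described here are 41 human genes of the integrated stress response and the unfolded protein response, taken by symbol from a table of 61541 genes. All 41 were found under their current symbol, and all 41 passed the filter on low counts that left 16768 genes for testing. They fall into 8 classes by role: 10 transcription factors and feedback genes around ATF4, 6 genes of serine and asparagine synthesis and transsulfuration, 5 amino acid transporters, 3 tRNA synthetases, 2 other targets, 4 sensors and factors of the unfolded protein response, 8 chaperones and folding factors of the endoplasmic reticulum (ER), and 3 genes of ER-associated degradation. RNA was sequenced from A549, an established human lung adenocarcinoma line, 14 days after transduction with Cas9 and a guide. Control cells carried the non-targeting guide gNTC1, and knockout cells carried gTYMS2, which is directed at TYMS, the gene of thymidylate synthase. Each was grown alone or in co-culture, in high-glucose medium with serum and no drug treatment, with 3 libraries in each of the 4 groups. The co-cultured knockout cells regained proliferation beside parental A549 cells, according to the series text. The control cells' partner, the separation of partners before RNA was taken, and whether the edited cells were a pool or 1 clone are not given in the sources used here. Nor do the sources say that replicates came from separate cultures, so p-values measure the spread between these libraries, which may be technical.

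In the integrated stress response, kinases that phosphorylate the translation factor eIF2 slow general protein synthesis while letting ATF4 messenger RNA be translated. ATF4 protein then switches on genes for amino acid synthesis, uptake and tRNA charging, and, in prolonged stress, DDIT3 (the factor CHOP) and its partners. The unfolded protein response starts from 3 sensors in the ER membrane: PERK (gene EIF2AK3), which feeds into ATF4, IRE1 (gene ERN1), which splices XBP1 messenger RNA, and ATF6, which is cut to release a transcription factor. Because ATF4 is set largely by translation and XBP1 by splicing, gene counts do not report the amount of either active protein.

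Some members carry the best-known response sequences of these pathways close to their start sites, and 6 of these stretches are shown. Promoters (250 bases before to 50 after a start site, RefSeq, GRCh38.p14) were matched for 39 of the 41 members, at 58 start sites. NUPR1 and PSPH had no entry. The composite ATF4 and C/EBP motif TGATGNAA, searched on both strands, was present at 9 of these 39 members (23.1%) and at 4.46% of all 27305 genes with a promoter of the same length. The ER stress element, CCAAT and CCACG separated by 9 bases of any kind, was present on either strand at 4 of 39 members (10.3%) and at 0.0916% of all genes. These 4 were CALR, HSP90B1, HSPA5 and XBP1. No member held both motifs. The members were listed as genes of these pathways, and the motifs are the pathways' known response sequences. The higher shares among members are therefore not an independent result. Of 12 members called higher in co-cultured against lone knockout, 2 held the composite motif (16.7%), against 7 of 27 others (25.9%). For the ER stress element these were 2 of 12 (16.7%) and 2 of 27 (7.41%). The stretches shown include all motif members called higher there, so they do not represent the motif members. Not shown are AARS1, ASNS, GARS1, SLC1A5, SLC3A2 and SLC7A1 (composite motif) and HSP90B1 (ER stress element). Capitals mark the motif, which reads as its reverse complement at CALR, CHAC1 and HERPUD1. The 100-base stretches, each on the strand of its gene, lie at chr22:28800570-28800669 (XBP1, minus strand), chr9:125241351-125241450 (HSPA5, minus strand), chr19:12938359-12938458 (CALR, plus strand), chr15:40953221-40953320 (CHAC1, plus strand), chr16:56931920-56932019 (HERPUD1, plus strand) and chr19:33374013-33374112 (CEBPG, plus strand).
XBP1: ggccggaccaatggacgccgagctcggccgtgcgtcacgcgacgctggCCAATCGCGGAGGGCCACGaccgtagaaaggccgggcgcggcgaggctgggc
HSPA5: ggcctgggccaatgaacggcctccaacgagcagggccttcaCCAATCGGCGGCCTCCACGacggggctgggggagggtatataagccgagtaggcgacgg
CALR: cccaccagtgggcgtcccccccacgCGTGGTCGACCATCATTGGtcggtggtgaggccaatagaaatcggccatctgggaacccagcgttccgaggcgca
CHAC1: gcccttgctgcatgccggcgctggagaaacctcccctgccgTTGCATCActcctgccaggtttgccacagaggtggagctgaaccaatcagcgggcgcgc
HERPUD1: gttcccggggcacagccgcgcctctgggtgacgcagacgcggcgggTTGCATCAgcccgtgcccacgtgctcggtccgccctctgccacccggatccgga
CEBPG: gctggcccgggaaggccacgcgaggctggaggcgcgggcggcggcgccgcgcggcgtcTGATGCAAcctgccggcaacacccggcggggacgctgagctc
A match is a description of the letters in this window and not evidence that a factor binds there.

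Library totals ran from 14921371 to 35723762 counts, so that a level of 1 CPM (TMM-scaled count per 1e6 counts) stood for at least 16.1 counts. Exons of 16 members overlap those of another gene. TYMS, the targeted gene, lay at 90.3 to 101 CPM in the 6 libraries labelled control and at 10.7 to 21.4 CPM in the 6 knockout libraries, with the co-cultured knockout (10.7 to 11.4) below the lone knockout (20.3 to 21.4). Genes looked at after their values were known went against the cell line label in the control libraries. A549 is known to lack CDKN2A and MTAP and to carry an inactivating SMARCA4 mutation, yet CDKN2A lay at 54.7 to 116 CPM, MTAP at 43.8 to 79.5 and SMARCA4 at 159 to 202 in the control libraries. The knockout libraries, lone and co-cultured, had CDKN2A at 0 to 0.119 CPM, MTAP at 0.302 to 0.647 and SMARCA4 at 10.9 to 13.5. EPCAM, an epithelial marker, was at 94.4 to 119 CPM in control and 0.149 to 0.913 in knockout libraries. Other epithelial markers also differed. The keratin KRT8 was at 5413 to 9110 CPM in control and 2364 to 4180 in knockout libraries, and KRT19 at 1190 to 2142 and 215 to 546. CDH1 was at 45.4 to 70.8 CPM in control and 15.1 to 28.1 in knockout libraries. KRT18 overlapped (2406 to 3853 and 1265 to 2554), while KRT7 was higher in the knockout (1213 to 2531 and 4396 to 7409). Of 11 markers of other cell types, summed levels were 23.2 to 25.7 CPM in the lone and 16.3 to 21.6 in the co-cultured knockout, mostly COL1A1; CD3E was at 0 in all 12 libraries, and JCHAIN and PTPRC did not exceed 0.129 CPM. For every difference between knockout and control given below, the guide cannot be told apart from a difference between the cell populations. Co-cultured knockout cells are set against lone knockout cells first, a contrast that holds no control library.

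In knockout cells, co-culture went with higher expression of DDIT3 and 5 other factors and feedback genes around ATF4, of XBP1 and, less stably, of 3 of the 8 chaperones and folding factors. DDIT3 was 9.32-fold and NUPR1 7.42-fold higher by their mean CPM, PPP1R15A 3.18-fold and TRIB3 2.77-fold. ATF4 itself and the main ER chaperone HSPA5 were not called in the main fit (edgeR, TMM, all 12 libraries). Of 20 alternative settings, given below, ATF4 was called higher in 3 and HSPA5 in 2. In all, 13 of the 41 members were called higher and 0 lower by edgeR's quasi-likelihood test at an adjusted p under 0.05 over all genes. Among all tested genes 5.97% were called higher and 5.4% lower. The members' median log2 fold change was 0.25, against 0.01 for all genes. At an unadjusted p under 0.05, 14 members were higher (the 13 and ATF4) and 3 lower (GARS1, PSAT1 and SEL1L), beside 14.1% and 16.0% of all genes. DESeq2 called the same 14 higher and 2 lower, GARS1 and PSAT1, beside 8.92% and 9.55% of all genes.

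The largest differences were among the transcription factors and feedback genes, where 6 of 10 were called higher and 0 lower. DDIT3 (chr12:57516588-57521737, minus strand, GENCODE 29), the pro-apoptotic factor CHOP, stood at 7.96, 7.47 and 5.35 CPM in the 3 lone knockout libraries and at 70.2, 60.9 and 62.7 CPM in the co-cultured ones. The groups were far apart, and the log2 fold change was 3.22 (SE 0.20, adjusted p = 2.42e-06 by edgeR). Exons of DDIT3 overlap those of MARS1 (named MARS there) on the opposite strand, and the strand setting of the counting is not given in the sources used here. MARS1, a tRNA synthetase gene, was at 187, 230 and 231 CPM alone and 237, 259 and 200 CPM in co-culture, which overlap, with a log2 fold change of 0.10 (edgeR adjusted p = 0.672). NUPR1 (chr16:28532708-28539174, minus strand), a small stress-induced chromatin protein, was at 0.974, 1.24 and 0.791 CPM alone and 7.98, 7.81 and 6.53 CPM in co-culture. It is a low-level gene, with 13 to 262 counts per library over the series, but its groups did not overlap (log2 fold change 2.88, SE 0.29, edgeR adjusted p = 8.39e-05).

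PPP1R15A (GADD34), the phosphatase subunit that removes the phosphate from eIF2 and so restores translation, was at 72.6, 83.9 and 86.7 CPM alone and 284, 279 and 209 CPM in co-culture (log2 fold change 1.67, SE 0.16, edgeR adjusted p = 6.49e-05). TRIB3, a pseudokinase that restrains ATF4 and CHOP, was at 62.1, 79.2 and 85.4 CPM alone and at 226, 244 and 157 CPM in co-culture (1.47, SE 0.22, edgeR adjusted p = 0.00132). In both genes every co-cultured library lay above every lone one. CHAC1, which breaks down glutathione and carries the composite motif shown above, was at 5.67, 5.68 and 6.33 CPM alone and 13.5, 16.3 and 10.9 CPM in co-culture (1.20, SE 0.22, edgeR adjusted p = 0.0043). CEBPB, a partner of ATF4 and CHOP, was at 147, 156 and 227 CPM alone and 394, 468 and 285 CPM in co-culture, with no overlap (1.12, SE 0.28, edgeR adjusted p = 0.0258).

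**Figure D1:**
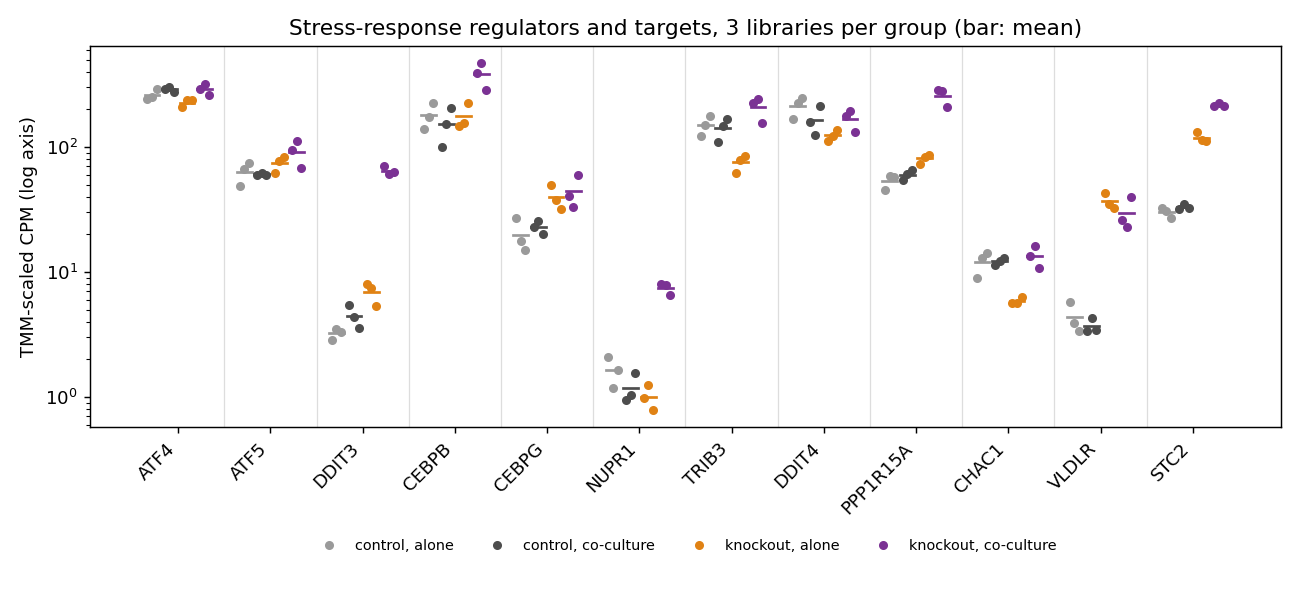
TMM-scaled CPM on a log axis for the 10 transcription factors and feedback genes and the 2 other targets VLDLR and STC2; each point is 1 library, each bar a group mean of 3 libraries, and colours give the 4 groups. The purple co-cultured knockout points of DDIT3, at 60.9 to 70.2 CPM, stand above all other libraries, while the 4 groups of ATF4 lie close together.

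ATF4 (chr22:39519695-39522685, plus strand) was at 207, 236 and 237 CPM in the lone and 291, 321 and 263 CPM in the co-cultured knockout. The libraries did not overlap, but the difference of 0.36 on the log2 scale (SE 0.13) was not called (edgeR adjusted p = 0.0853). It was called higher by DESeq2, with scaling by library size alone and without co-cultured replicate 3. ATF5, a relative of ATF4, averaged 74.0 ± 11.2 CPM (SD, n = 3) alone and 91.8 ± 22.5 in co-culture, and DDIT4, an inhibitor of the growth kinase mTOR complex, 124 ± 13.3 and 168 ± 31.6. CEBPG, which pairs with ATF4 and has the composite motif, was at 49.4, 38.0 and 31.9 CPM alone and 40.4, 32.8 and 59.5 CPM in co-culture, overlapping ranges. None of the 3 was called (edgeR adjusted p = 0.303, 0.186 and 0.723).

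Among the sensors and factors of the unfolded protein response, 2 of 4 were called higher. XBP1 (chr22:28794555-28800597, minus strand), the factor made active by IRE1, was at 43.4, 44.6 and 47.6 CPM alone and 97.7, 94.1 and 84.7 CPM in co-culture. Its libraries varied little within a group, and the log2 fold change was 1.03 (SE 0.12, edgeR adjusted p = 0.000266). The sensor gene ERN1 was at 22.2, 17.2 and 15.9 CPM alone and 34.8, 29.1 and 44.0 CPM in co-culture, again without overlap (0.96, SE 0.20, edgeR adjusted p = 0.0106). ATF6 averaged 29.7 ± 4.31 and 25.2 ± 8.39 CPM (SD, n = 3) and EIF2AK3 8.82 ± 1.87 and 6.11 ± 2.49 CPM, alone and in co-culture, and neither was called.

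Of the 8 chaperones and folding factors 3 were called higher, by smaller folds. CALR (calreticulin, a lectin chaperone) was at 610, 695 and 735 CPM alone and 1060, 1135 and 895 CPM in co-culture (log2 fold change 0.60, SE 0.17, edgeR adjusted p = 0.0436). HYOU1, a nucleotide exchange factor for HSPA5, went from 114, 114 and 110 CPM to 164, 175 and 146 CPM (0.52, SE 0.14, edgeR adjusted p = 0.0325). PDIA4, a disulfide isomerase, averaged 286 ± 5.05 CPM alone and 393 ± 15.5 CPM in co-culture (0.46, edgeR adjusted p = 0.0376). In these 3 genes the 2 groups did not overlap, but the calls were unstable: of 20 alternative settings (other scalings, filters and models, and left-out libraries), CALR was called in 8, and HYOU1 and PDIA4 each in 11. HSPA5 (BiP, chr9:125234853-125241330, minus strand), the chaperone that holds the sensors inactive, was at 466, 401 and 387 CPM alone and 492, 441 and 558 CPM in co-culture. These ranges overlapped, and its log2 fold change of 0.25 (95% interval -0.06 to 0.56) was not called. So among the 4 members with an ER stress element, XBP1 and CALR were called higher in the main fit, HSPA5 and HSP90B1 were not. This split depended on the setting. HSPA5 was called higher with GC offsets, and with the replicate block and GC offsets. HSP90B1 was called lower without co-cultured replicate 3. HSP90B1 (the chaperone GRP94) had its 3 co-cultured libraries at 80.0, 51.0 and 187 CPM, a spread that covers the lone libraries at 140 to 191 CPM. The remaining 3, DNAJB9, DNAJC3 and SDF2L1, were not called either, with log2 fold changes of 0.77, -0.59 and 0.41.

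HERPUD1, which gathers the degradation complex at the ER membrane, was at 46.2, 49.5 and 45.2 CPM alone and 66.5, 67.2 and 63.8 CPM in co-culture (log2 fold change 0.49, SE 0.11, edgeR adjusted p = 0.0151). The groups were tight and separate. The other 2 degradation genes were not called: SEL1L, a scaffold of that complex, was at 51.9, 38.9 and 36.5 CPM alone and 17.6, 15.9 and 37.8 CPM in co-culture (-0.84, SE 0.33, edgeR adjusted p = 0.112), and EDEM1, a mannosidase-like protein, had a log2 fold change of 0.09. STC2, a secreted glycoprotein induced by ATF4, was at 132, 114 and 111 CPM alone and 212, 227 and 214 CPM in co-culture, which do not overlap (0.87 on the log2 scale, SE 0.12, edgeR adjusted p = 0.000707).

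**Figure D2:**
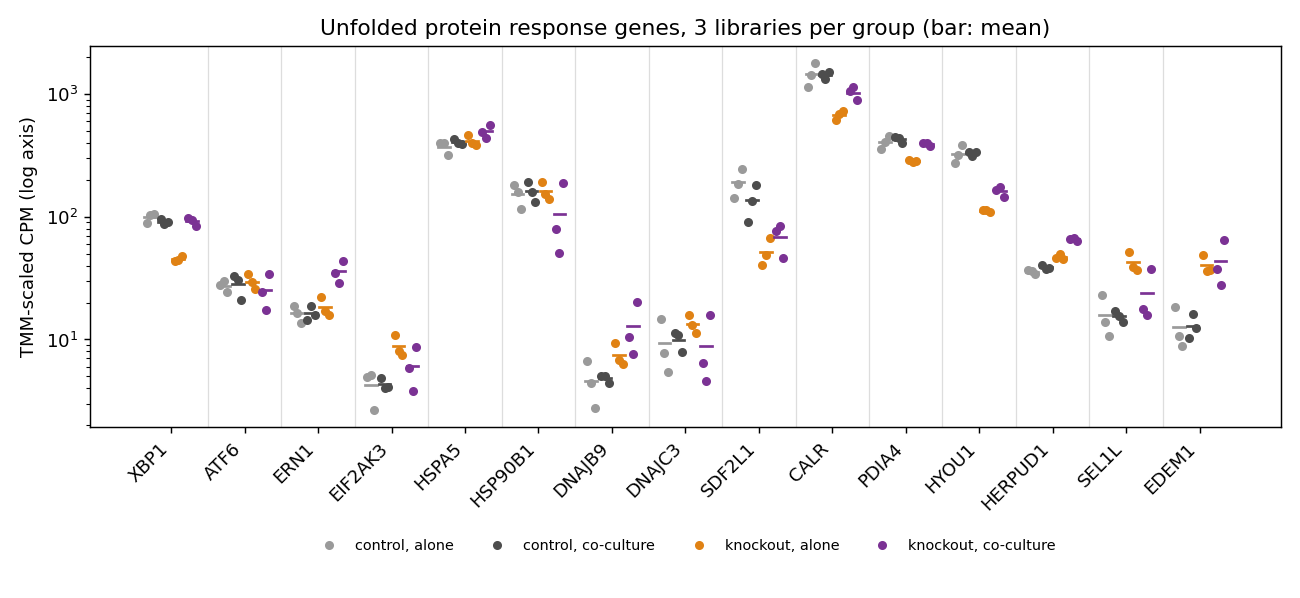
TMM-scaled CPM on a log axis for the 4 sensors and factors, 8 chaperones and folding factors and 3 degradation genes; points are libraries, bars are means of 3. XBP1 lies at 43.4 to 47.6 CPM in the lone knockout and at 84.7 to 97.7 in its co-culture, and 1 co-cultured knockout library of HSP90B1 lies apart from the other 2 (187 against 80.0 and 51.0 CPM).

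The metabolic members were not among the genes called higher. The 6 synthesis and transsulfuration genes, the 5 transporters and the 3 tRNA synthetases make 14 members. Of these, 0 were called in either direction between co-cultured and lone knockout in the main fit. Among all genes 5.97% were called higher and 5.4% lower, shares at which a list of 14 may well hold 0 calls. DESeq2 called GARS1 and PSAT1 lower, beside 9.55% of all genes. With GC offsets GARS1, PHGDH and SLC7A5 were called lower, beside 15.6% of all genes. PSAT1, the aminotransferase of serine synthesis, was at 159, 141 and 153 CPM alone and 104, 82.9 and 127 CPM in co-culture. GARS1, which charges the glycine tRNA, was at 130, 128 and 118 CPM alone and 71.7, 60.4 and 102 CPM in co-culture. In both the co-cultured libraries were all lower, with log2 fold changes of -0.53 (SE 0.17, edgeR adjusted p = 0.0655) and -0.68 (SE 0.23, edgeR adjusted p = 0.0695). ASNS, the asparagine synthetase and a textbook ATF4 target, was at low level, with 0.339 to 1.05 CPM alone and 0.775 to 1.19 CPM in co-culture.

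Of the 13 calls, DDIT3, NUPR1, PPP1R15A, TRIB3, CHAC1, XBP1 and STC2 were kept in all 21 alternatives, except that STC2 misses the one that adds a 2-fold minimum. Of the 20 others, CALR was lost in 12, HYOU1 and PDIA4 in 9 each, HERPUD1 in 6, CEBPB in 5 and ERN1 in 4. With only the lone and co-cultured knockout libraries in the fit, 7 were called higher, beside 2.7% of all genes. Leaving out any lone knockout library, or co-cultured replicate 1 or 2, left 8 called higher, beside 2.37% to 3.37% of all genes. Without co-cultured replicate 3, 16 were called higher and 8 lower (DNAJC3, EIF2AK3, GARS1, HSP90B1, PSAT1, SEL1L, SLC38A2 and VLDLR), beside 12.2% and 21.2% of all genes in that fit. Of the 6 epithelial markers 0 were called here. Of the 11 markers of other cell types 5 could be tested and 2 were called, CD14 higher (0.797 to 0.913 CPM alone, 2.76 to 4.23 in co-culture) and COL1A1 lower. Their part in the result was not tested, and in bulk RNA fewer cells of a type and less RNA per cell cannot be told apart.

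Co-cultured replicate 3 differed from its fellow libraries by the GC content of the transcript, and such trends were present in every group. The Spearman correlation of the deviation from the group mean with GC content was 0.36, 0.75 and -0.77 in co-cultured knockout replicates 1 to 3. It ran from -0.56 to 0.54 in the lone knockout, -0.63 to 0.60 in the lone control and -0.49 to 0.59 in the co-cultured control. Among the 18 members with a GC content under 50%, it was the highest of the 3 libraries in 14, with a median deviation from the group's mean log2 CPM of 0.46. Among the 23 members at or over 50% it was the lowest in 19, with a median deviation of -0.26. SLC38A2, a neutral amino acid transporter with 38.8% GC, was at 20.3, 13.1 and 55.6 CPM in the co-cultured knockout replicates 1 to 3. CEBPB, with 66.2% GC, showed the opposite order at 394, 468 and 285 CPM. Of the 13 members called higher in co-culture, 11 had a GC content of at least 50%. Over 16505 genes the Spearman correlation of the log2 fold change with GC content was 0.446, given as a description only. It was -0.380 for co-cultured against lone control. For the difference between the co-culture effects in knockout and control, tested below as an interaction, it was 0.547. It was -0.396 for lone knockout against control and -0.109 with both co-cultured. With offsets that take out each library's trend with GC content, 16 members were called higher and 4 lower (GARS1, PHGDH, SEL1L and SLC7A5), beside 14.1% and 15.6% of all genes.

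**Figure D3:**
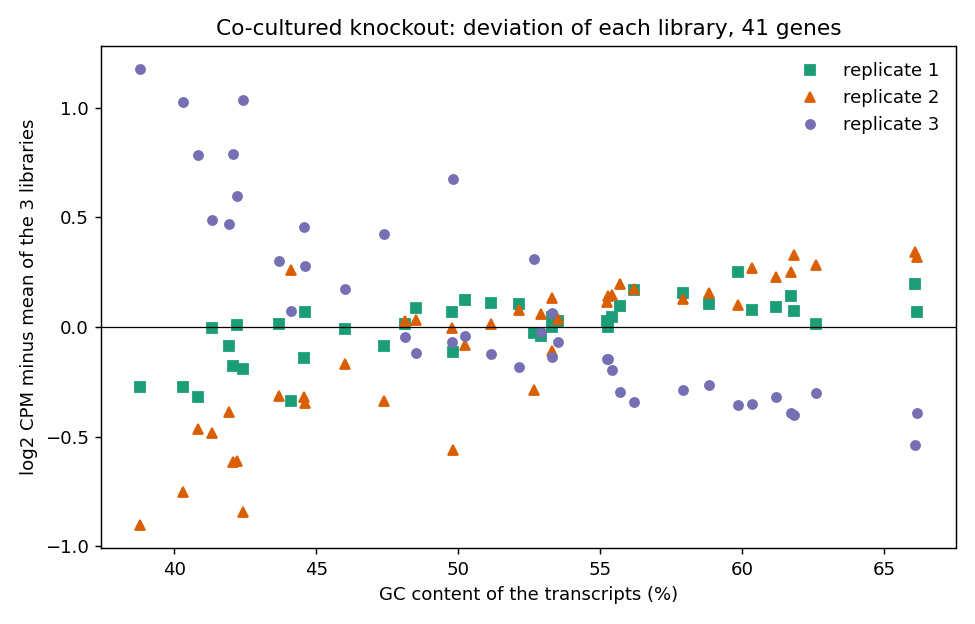
Deviation of each co-cultured knockout library from the mean log2 CPM of the 3 (vertical) against transcript GC content in percent (horizontal), 1 point per member and library. Replicate 3 runs from above 0 at low GC content to below 0 at high GC content (median 0.46 under 50% and -0.26 at or over it), with replicate 2 the other way.

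In control cells, co-culture was followed by no call: 0 of 41 members were called higher and 0 lower, as were 0.0% and 0.0% of all genes. At an unadjusted p under 0.05 only DDIT3 passed (2.85, 3.51 and 3.33 CPM alone, 5.46, 4.36 and 3.55 CPM in co-culture), and DESeq2 called 0. The difference between the co-culture effects in knockout and control was tested as an interaction. It called 6 members with a greater change in knockout cells and 0 with a smaller one, beside 1.51% and 0.286% of all genes. At an unadjusted p under 0.05 the counts were 15 and 2, beside 10.0% and 8.67% of all genes, and DESeq2 called 9 and 0, beside 4.05% and 2.41%. The 6 were NUPR1 (interaction of 3.34 on the log2 scale, SE 0.41, edgeR adjusted p = 0.00143), DDIT3 (2.76, SE 0.29, adjusted p = 0.000491), TRIB3 (1.55, SE 0.30, adjusted p = 0.0209), PPP1R15A (1.5, SE 0.22, adjusted p = 0.00414), XBP1 (1.15, SE 0.17, adjusted p = 0.0039) and STC2 (0.73, SE 0.17, adjusted p = 0.0474). Of 19 alternatives, STC2 was lost in 15 and TRIB3 in 7, and the other 4 in none. Leaving out 1 library gave 4 to 11 called greater, beside 0.642% to 7.05% of all genes. Without co-cultured knockout replicate 3 only, 6 were called smaller, beside 14.2% of all genes in that fit. CHAC1 (1.18, edgeR adjusted p = 0.072), CEBPB (1.35, adjusted p = 0.115) and ERN1 (0.96, adjusted p = 0.118) were called in the knockout but not in the interaction. DESeq2 did call CHAC1, CEBPB and ERN1 in the interaction. CALR, HERPUD1, HYOU1 and PDIA4 were also called in the knockout only, and DESeq2 did not call them in the interaction.

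Between lone knockout and lone control cells the members split in both directions. There were 15 called higher and 13 lower, 36.6% and 31.7% of members, beside 28.0% and 28.6% of all genes. The members' median log2 fold change was 0.18, against 0.09 for all genes. This comparison shares the lone knockout libraries with the one above, so opposite signs in the 2 are not independent. Of the 6 epithelial markers, 1 was called higher (KRT7) and 4 lower here (KRT8, KRT19, CDH1 and EPCAM). Of the 5 tested markers of other cells 2 were lower (CD14 and VWF). The part of these markers' cells in the differences was not tested.

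ATF4 itself was at 244, 251 and 290 CPM in lone control and 207, 236 and 237 CPM in lone knockout libraries (-0.21 on the log2 scale, SE 0.13, edgeR adjusted p = 0.186). It was not called, and its sign turned with GC offsets (0.067). Of the 10 factors and feedback genes, 3 were called higher and 3 lower. DDIT3 was higher in the knockout, from 2.85, 3.51 and 3.33 to 7.96, 7.47 and 5.35 CPM (1.10, SE 0.21, edgeR adjusted p = 0.000599), as were CEBPG (1.0, adjusted p = 0.00586) and PPP1R15A (0.59, adjusted p = 0.00608). TRIB3 was lower, from 122, 149 and 176 CPM to 62.1, 79.2 and 85.4 CPM (-0.98, SE 0.21, edgeR adjusted p = 0.00181), as were CHAC1 (-1.03, adjusted p = 0.00128) and DDIT4 (-0.78, adjusted p = 0.00736). The 3 lower calls were lost with GC offsets, where TRIB3 was at -0.18 (edgeR adjusted p = 0.089), CHAC1 at -0.16 (0.346) and DDIT4 at -0.014 (0.924), whereas the 3 higher calls were kept. NUPR1 was at 2.11, 1.17 and 1.64 CPM in control and 0.974, 1.24 and 0.791 CPM in knockout cells and was not called.

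Of the 5 amino acid transporters 2 were called higher and 1 lower, and of the 6 synthesis and transsulfuration genes 2 higher and 3 lower. SLC7A5 and SLC3A2 encode the 2 chains of the large neutral amino acid transporter LAT1. SLC7A5 was at 1110, 1325 and 1619 CPM in control and 3489, 3966 and 4330 CPM in knockout cells (log2 fold change 1.54, SE 0.20, edgeR adjusted p = 3.94e-05). SLC3A2 was at 491, 583 and 726 CPM in control and 1153, 1332 and 1447 CPM in knockout cells (1.13, SE 0.18, edgeR adjusted p = 0.00021). Both chains were higher in every lone knockout library than in every lone control library. SLC1A5, a glutamine transporter, was called lower (-0.49, SE 0.18, edgeR adjusted p = 0.0353), but its sign turned with GC offsets (0.089). SLC7A1, the cationic amino acid transporter, and SLC38A2 were not called.

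PHGDH, the first enzyme of serine synthesis, was at 166, 214 and 256 CPM in control and 50.1, 70.2 and 77.9 CPM in knockout cells (log2 fold change -1.68, SE 0.21, edgeR adjusted p = 2.09e-05). PSAT1, the next enzyme, was called in the opposite direction (86.9, 93.7 and 74.4 CPM in control, 159, 141 and 153 CPM in knockout, 0.83, SE 0.17, edgeR adjusted p = 0.00134), and PSPH, the last, was not called. In transsulfuration, which makes cysteine, CTH fell from 5.52, 5.61 and 5.41 CPM to 1.44, 1.79 and 1.46 CPM (-1.81, SE 0.23, edgeR adjusted p = 2.47e-05). CBS, the step before it, was called higher (1.75, SE 0.60, edgeR adjusted p = 0.0246) at 1 to 43 counts per library; it has a near-identical copy, CBSL, so its counts are uncertain. ASNS was at 1.86, 2.34 and 1.69 CPM in control and 0.339, 1.05 and 0.73 CPM in knockout cells (-1.49, SE 0.37, edgeR adjusted p = 0.00426).

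The 3 tRNA synthetases differed among themselves. AARS1, for alanine, was at 431, 513 and 580 CPM in control and 231, 267 and 266 CPM in knockout cells (log2 fold change -1.0, SE 0.15, edgeR adjusted p = 8.75e-05). GARS1 was higher (79.3, 85.0 and 53.5 CPM against 130, 128 and 118 CPM, 0.79, SE 0.23, edgeR adjusted p = 0.0101), and WARS1, for tryptophan, was at the margin (106, 129 and 126 CPM against 141, 157 and 150 CPM, 0.31, edgeR adjusted p = 0.0475). The WARS1 call was lost in 19 of 20 alternatives and the GARS1 call in 1. VLDLR, a lipoprotein receptor induced by ATF4, had the largest fold change of the 41 in this comparison, from 5.70, 3.94 and 3.39 CPM to 43.1, 35.1 and 32.3 CPM (3.09, SE 0.26, edgeR adjusted p = 6.87e-07). STC2 went from 32.4, 30.7 and 27.3 CPM to 132, 114 and 111 CPM (1.98, SE 0.12, edgeR adjusted p = 4.13e-08).

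**Figure D4:**
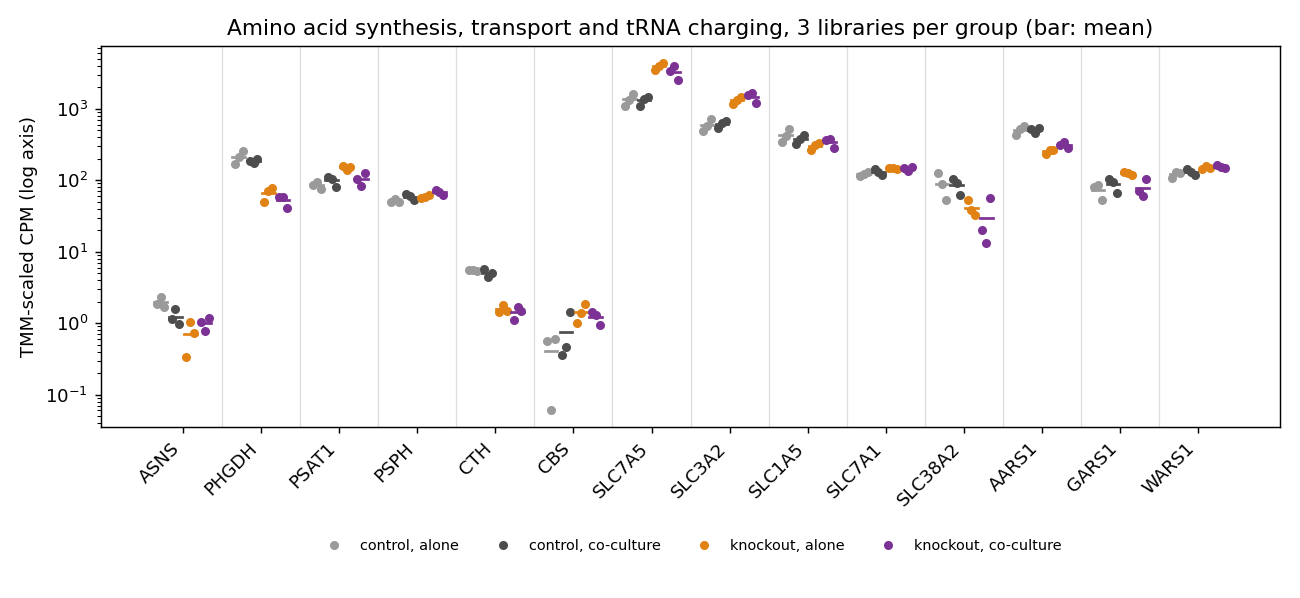
TMM-scaled CPM on a log axis for the 6 synthesis and transsulfuration genes, 5 amino acid transporters and 3 tRNA synthetases; points are libraries, bars are means of 3. SLC7A5 and SLC3A2 lie higher and PHGDH, CTH and AARS1 lower in both knockout groups than in both control groups; for AARS1 the ranges are 231 to 344 CPM against 431 to 580.

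Of the 8 chaperones and folding factors 0 were called higher and 4 lower in the lone knockout. All 3 degradation genes were called higher. Among all genes 28.0% were called higher and 28.6% lower. GC content was 53.5% to 66.1% in the 4 lower genes, and 40.3% to 46.0% in the other 4. In the 3 degradation genes it was 40.9% to 49.8%. The Spearman correlation of the log2 fold change with GC content was -0.396 in this comparison. With GC offsets SDF2L1 was at -0.79 and SEL1L at 0.87, both still called. The part of GC content in this split was not tested. SDF2L1, a cofactor of ER folding, was at 143, 184 and 246 CPM in control and 40.4, 49.1 and 66.7 CPM in knockout cells (log2 fold change -1.88, SE 0.30, edgeR adjusted p = 0.000203). HYOU1 went from 277, 318 and 386 CPM to 114, 114 and 110 CPM (-1.54, SE 0.14, edgeR adjusted p = 1.45e-06), CALR from 1141, 1444 and 1785 CPM to 610, 695 and 735 CPM (-1.10, SE 0.18, edgeR adjusted p = 0.00017), and PDIA4 was also lower (-0.51, adjusted p = 0.00414). HSPA5 was not called (0.16, edgeR adjusted p = 0.355), and its sign turned with GC offsets (-0.24). EDEM1 was at 18.3, 10.7 and 8.85 CPM in control and 48.9, 36.1 and 37.1 CPM in knockout cells (1.69, SE 0.33, edgeR adjusted p = 0.000826). SEL1L was at 23.2, 13.9 and 10.6 CPM in control and 51.9, 38.9 and 36.5 CPM in knockout cells (1.42, SE 0.34, edgeR adjusted p = 0.00315). HERPUD1 was higher by 0.40 on the log2 scale (SE 0.11, edgeR adjusted p = 0.00747), a call lost in 3 of 20 alternatives (0.11 with GC offsets, adjusted p = 0.374). XBP1 was lower, from 88.3, 104 and 105 CPM to 43.4, 44.6 and 47.6 CPM (-1.13, SE 0.12, edgeR adjusted p = 5.35e-06), and EIF2AK3 higher (4.96, 5.17 and 2.68 CPM against 11, 8.02 and 7.48 CPM, 1.05, SE 0.33, edgeR adjusted p = 0.015). Of the 28 calls, 19 were kept in the same 20 alternatives. SLC1A5 was lost in 6, CBS in 3, and CHAC1, DDIT4, EIF2AK3 and TRIB3 in 2 each, beside GARS1, HERPUD1 and WARS1 above.

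**Figure D5:**
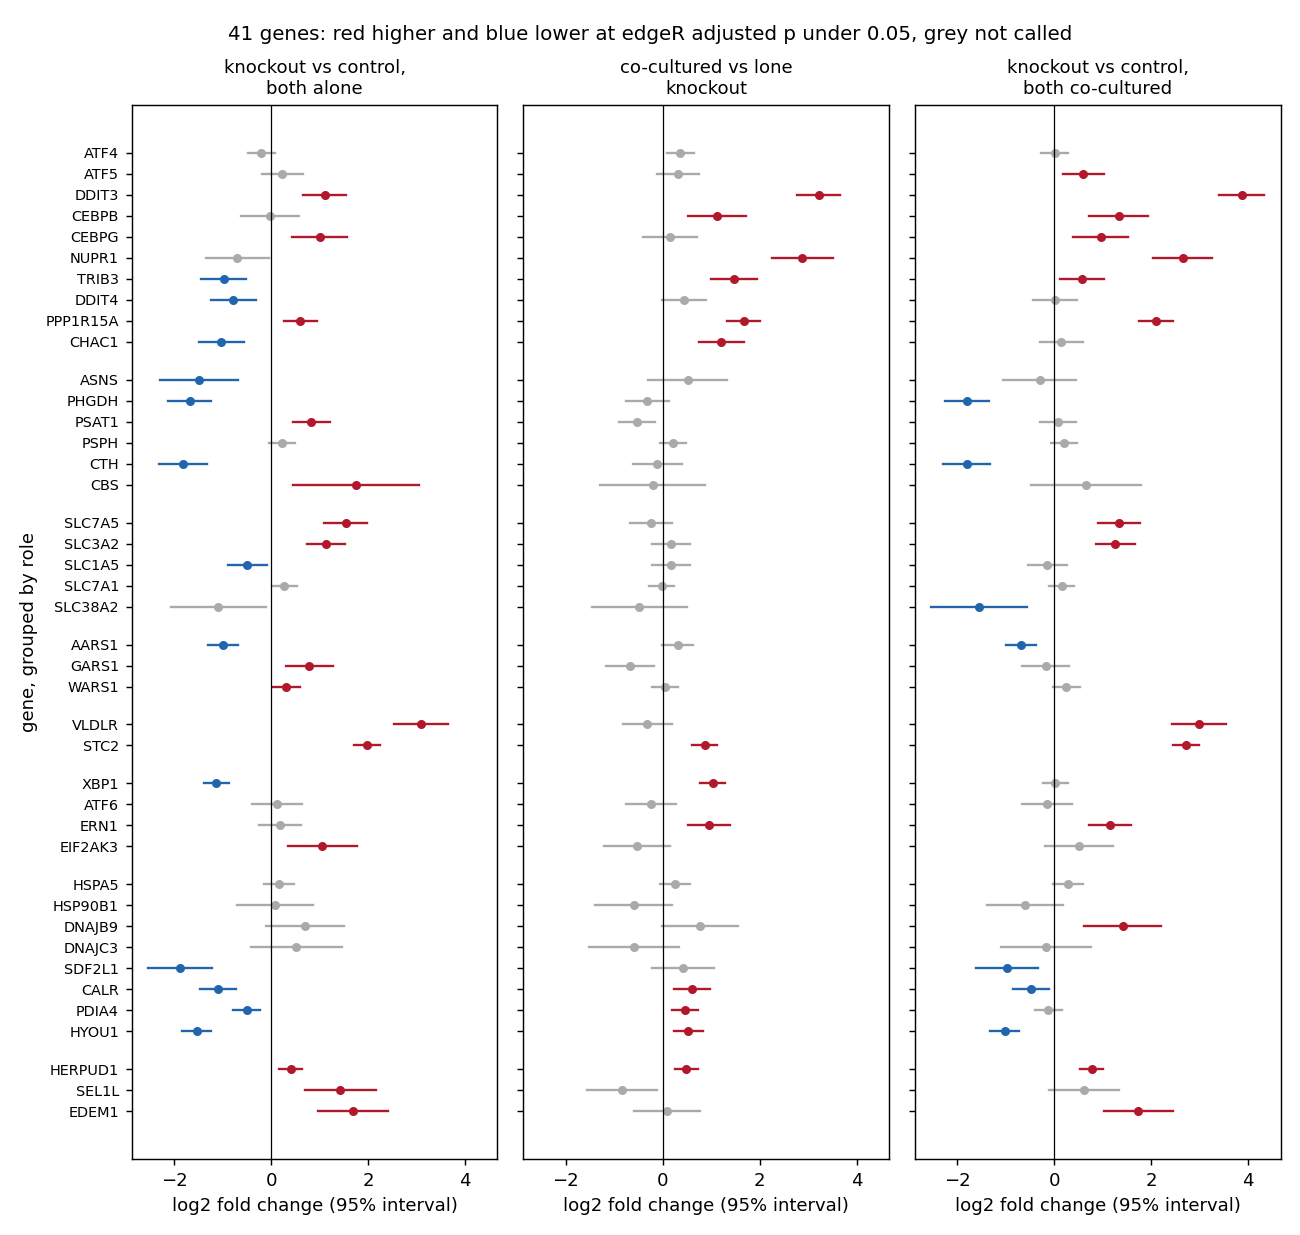
Log2 fold changes with 95% intervals for all 41 members, grouped by role, in knockout versus control alone (left), co-cultured versus lone knockout (middle) and knockout versus control in co-culture (right). The middle panel has 13 members in red and 0 in blue, the left panel 15 and 13; the panels share libraries, so their values are not independent.

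Knockout and control cells were also compared with both in co-culture. Here 15 members were called higher and 7 lower, beside 24.1% and 25.3% of all genes, and the members' median log2 fold change was 0.20 against -0.02. Among the 10 factors and feedback genes 7 were higher and 0 lower. DDIT3 led, at 5.46, 4.36 and 3.55 CPM in co-cultured control and 70.2, 60.9 and 62.7 CPM in co-cultured knockout libraries (3.86, SE 0.21, edgeR adjusted p = 1.73e-08). Next by p-value among these 10 was PPP1R15A, at 54.3, 60.5 and 66.0 CPM against 284, 279 and 209 CPM (2.09, SE 0.16, edgeR adjusted p = 3.5e-07), with NUPR1 (2.64, adjusted p = 6.23e-06) and CEBPB (1.33, adjusted p = 0.00165) also higher. ERN1, at 14.5, 18.6 and 15.8 CPM in control and 34.8, 29.1 and 44.0 CPM in knockout co-cultures, was called (1.14, SE 0.20, edgeR adjusted p = 0.000413), as was DNAJB9, a cochaperone of HSPA5, at 5.05, 5.01 and 4.40 CPM against 10.4, 7.66 and 20.3 CPM (1.41, SE 0.37, edgeR adjusted p = 0.00648). XBP1 and ATF4 overlapped between these 2 groups, with log2 fold changes of 0.02 (95% interval -0.24 to 0.28) and 0.0045 (-0.28 to 0.28). The 7 called lower were PHGDH, CTH, AARS1, SDF2L1, HYOU1, CALR and SLC38A2, the last at 105, 92.1 and 62.9 CPM in control and 20.3, 13.1 and 55.6 CPM in knockout co-cultures (-1.55, SE 0.46, edgeR adjusted p = 0.013). Of 20 alternatives, CALR and TRIB3 were lost in 9 each, ATF5 in 5, and SDF2L1 and SLC38A2 in 1 each.

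Called in none of these 3 comparisons by the main fit were 7 members: ATF4, ATF6, DNAJC3, HSP90B1, HSPA5, PSPH and SLC7A1. Levels per kilobase of exon, the scale on which genes can be set beside each other, ran from 0.158 CPM per kb (ASNS) to 828 (SLC7A5) in the lone knockout, with a median of 19.2. By its median over the 41 members, the coefficient of variation between replicates was highest in the co-cultured knockout, at 20.4%, with up to 76.6% for SLC38A2. The lone control was close, with a median of 18.9%. The co-cultured control had the lowest median but the highest single value, 79.02% for CBS. In the lone knockout the median was 12.7%, with up to 50.3% for ASNS.

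The other genes of these pathways were taken from 3 further lists of 66 genes, of which 65 were tested. Co-culture of the knockout called 9 of them higher and 4 lower (13.8% and 6.15%, beside 5.97% and 5.4% of all genes). ATF3, a factor downstream of ATF4, was at 9.06, 8.02 and 11.2 CPM alone and 53.5, 47.3 and 44.0 CPM in co-culture (2.36 on the log2 scale, SE 0.17, edgeR adjusted p = 5.7e-06). GDF15, a secreted stress hormone, went from 87.3, 98.6 and 122 CPM to 547, 626 and 363 CPM (2.32, SE 0.24, edgeR adjusted p = 0.00012). Both were named after their values were seen. The eIF2 kinase gene EIF2AK4 (GCN2), which senses uncharged tRNA, was called lower in co-culture (-0.90, SE 0.24, edgeR adjusted p = 0.0309), from 61.1, 51.0 and 47.2 CPM to 27.6, 19.3 and 38.5 CPM. The cystine transporter gene SLC7A11 was also lower (-1.14, SE 0.33, edgeR adjusted p = 0.0444). Between lone knockout and control, 15 were called higher and 17 lower (23.1% and 26.2%, beside 28.0% and 28.6% of all genes). SLC7A11 (2.84), the ER-membrane factor CREB3L2 (1.93) and EIF2AK4 (1.27) were higher, and PYCR1 (-1.90), of proline synthesis, EIF2B5 (-1.27), of the eIF2 exchange factor, and the ER protein gene CRELD2 (-1.14) were lower, all with an edgeR adjusted p of 0.00063 or less. The 15 became 9 without lone control replicate 2 or 3, beside 22.0% and 21.2% of all genes. In co-cultured against lone knockout the 9 higher calls became 5 without lone knockout replicate 1 or 2 or co-cultured replicate 1, beside 2.37% to 2.46% of all genes. With GC offsets they became 18, beside 14.1%. The 4 lower calls became 0 without any 1 of the lone knockout libraries or co-cultured replicate 1 or 2, beside 0.759% to 2.54% of all genes. They became 21 without co-cultured replicate 3, 16 with GC offsets and 12 by DESeq2, beside 21.2%, 15.6% and 9.55%.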

How the data were processed

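The authors deposited a single count table, not normalized, with a row per Ensembl gene. Per the submitters' processing notes, FastQC, STAR 2.7.9a, featureCounts, R 4.2.1, DESeq2 1.36.0 and GRCh38 were used, with no further settings given in the sources used here. Symbols, positions (GENCODE 29, GRCh38) and GC content were added by gene identifier. In R 4.3.3, edgeR 4.0.16 kept 16768 genes by filterByExpr, scaled by TMM, fitted 4 group means over all 12 libraries and tested 5 comparisons by the robust quasi-likelihood test. P-values were adjusted (Benjamini-Hochberg) over all tested genes. SE is the absolute log2 fold change divided by the square root of F. The coefficient of biological variation was 22.1%. Tested on simulated data for lone knockout against control (16316 genes), the fit recovered 47% of 100 genes changed 2-fold and 5% of 100 changed 1.5-fold, with 4 false calls. In the real libraries 28.0% of all genes were called higher and 28.6% lower in that comparison. Recovery with so many changed genes was not tested. Alternatives were scaling, filters, GC offsets, a replicate block, left-out libraries and DESeq2 1.42.0. Named genes were ATF4, DDIT3, XBP1 and HSPA5, the largest 3 called per class in lone knockout against control, the smallest p-values in the other comparisons, and 2 per further list; other members are named from their calls. Members and lists were chosen with earlier results of these data known.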

Additional observations from a re-analysis of the deposited data

Results flagged for a closer look

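For 6 members the co-culture effect differed between knockout and control cells by the interaction test. The difference (knockout minus control, log2 scale) was 3.34 for NUPR1, 2.76 for DDIT3, 1.55 for TRIB3, 1.5 for PPP1R15A, 1.15 for XBP1 and 0.73 for STC2. The STC2 call was lost in 15 of 19 alternatives and the TRIB3 call in 7, and the other 4 in none. In the control cells none of the 6 was called with co-culture, with DDIT3 at 0.45 and NUPR1 at -0.46. The control libraries express CDKN2A, MTAP and EPCAM and the knockout libraries hardly do, so the guide and the cell population cannot be told apart in these differences.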

How the results depend on the processing

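Adding a 2-fold minimum left 8 members lower in lone knockout against control, 7 higher in co-cultured against lone knockout, and 4 lower in knockout against control in co-culture. The shares of all genes were 18.3%, 2.93% and 15.2%. In co-cultured against lone knockout, the fit of only these 2 groups called 7 higher, beside 2.7% of all genes. Members called lower numbered 2 without the filter on low counts, 4 with GC offsets, 3 with the replicate block and GC offsets, and 2 by DESeq2. The shares of all genes called lower were 4.33%, 15.6%, 13.1% and 9.55%. The interaction gave 10 greater and 1 smaller without the filter, beside 1.92% and 1.59% of all genes. It gave 11 and 2 with GC offsets, beside 4.48% and 4.79%, and 1 smaller with block and GC offsets, beside 2.63%. Leaving out 1 library at a time gave 12 to 15 higher and 12 to 14 lower for lone knockout against control, 8 to 16 and 0 to 8 for co-cultured against lone knockout, 13 to 15 and 5 to 8 for both co-cultured, 0 to 0 for control cells, and 4 to 11 and 0 to 6 for the interaction. In these fits the shares of all genes called higher and lower were 21.2% to 31.6% and 24.4% to 30.2% for lone knockout against control. They were 2.37% to 12.2% and 0.759% to 21.2% for co-cultured against lone knockout. For both co-cultured they were 20.0% to 24.2% and 21.5% to 29.5%, and for the interaction 0.642% to 7.05% and 0.0526% to 14.2%. Signs turned with GC offsets, and with the replicate block and GC offsets, in lone knockout against control for ATF4 (0.067 and 0.066), HSPA5 (-0.24 in both) and the called SLC1A5 (0.089 and 0.090), in co-cultured against lone knockout for ATF6 (0.231 and 0.231) and MARS1 (-0.044 and -0.043), and in both co-cultured for XBP1 (-0.084 and -0.083). They turned within the left-out libraries for CEBPG (-0.12 to 0.34) and EDEM1 (-0.32 to 0.33) in co-cultured against lone knockout, and for XBP1 (-0.046 to 0.082) and ATF4 (-0.100 to 0.0763) in both co-cultured; none of these 4 was called in that comparison. The cause of these changes was not tested. Scaling by library size alone moved the median of all genes from 0.09 to 0.24 in lone knockout against control and from 0.01 to -0.11 in the interaction, and the share of calls that were higher in co-cultured against lone knockout from 52.5% to 69.6%. Over all 4 groups, 7 of 18 same-numbered pairs had correlated deviations over 0.1 (-0.60 to 0.49), beside 14 of 36 other pairs. Only 4 of 12 libraries correlated best with their own number. Yet in lone control, co-cultured control and lone knockout, the trend with GC content ran alike by number. Its Spearman correlation was -0.63, -0.49 and -0.56 for replicate 1 and 0.60, 0.59 and 0.54 for replicate 3. In the co-cultured knockout these were 0.36 and -0.77. With the replicate block, calls higher and lower were 14 and 13, 10 and 0, 15 and 7, and 5 and 0 in the order lone, co-cultured against lone knockout, both co-cultured and interaction. In the same order the shares of all genes were 26.5% and 27.6%, 3.91% and 2.53%, 22.7% and 23.7%, and 0.972% and 0.0954%. Among the members, counts under about 16.1 per library (1 CPM) limit ASNS, CBS and NUPR1.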
